A study of Mus musculus with 16 samples.

Results

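The unfolded protein and integrated stress response was followed through 35 mouse genes, taken from a list of symbols and all found in the count files. They fall into 7 sensors and transcription factors of the response, 11 target genes of the transcription factor ATF4, and 17 chaperone and quality-control genes that XBP1 and ATF6 are known to drive. The 35 symbols matched 36 of 55359 gene records, because Ddit3 has 2 overlapping records, of which ENSMUSG00000025408.16 held 31143 counts over all libraries and was used, while ENSMUSG00000116429.2 held 0. All 35 passed the filter on low counts, and the rule that takes them by symbol uses no measured value.

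The samples were MPI-2 cells, a wild-type mouse line of alveolar-like macrophages cultured with GM-CSF, a cytokine that alveolar macrophages need. There were 4 groups of 4 libraries of polyadenylated RNA, namely cells exposed to Mycobacterium abscessus at day 1, cells exposed to it at day 5, uninfected cells at day 1 and uninfected cells at day 5. Mycobacterium abscessus is a rapidly growing nontuberculous mycobacterium that can live inside macrophages. The replicates were labelled biological but came from 1 cell line, used over a wide range of passages, and the bacterial strain, the dose and how many cells took up bacteria are not given in the sources used here.

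Proteins that misfold in the endoplasmic reticulum (ER) are sensed by membrane proteins of that organelle. IRE1, encoded by Ern1, removes a short intron from Xbp1 mRNA and so lets the active factor XBP1 be made, ATF6 is cut to release a transcription factor, and both raise chaperones, oxidoreductases and the machinery of ER-associated degradation (ERAD). PERK, encoded by Eif2ak3, phosphorylates the translation factor eIF2α, which lowers protein synthesis and favours translation of ATF4; kinases that sense double-stranded RNA, missing amino acids or haem shortage converge on the same step, and this shared route is called the integrated stress response. ATF4 raises genes of amino acid uptake and synthesis and, with CHOP (encoded by Ddit3), genes of redox control, feedback and cell death. Macrophages infected with mycobacteria are a setting in which both routes have been studied. Counts per gene show neither the splicing of Xbp1, nor the cleavage of ATF6, nor the translation of Atf4, so all values concern mRNA levels.

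Total counts lay between 46154875 and 81995629 per library. Levels are given as CPM, in the order of replicates 1 to 4. CPM are counts scaled to a common library total after each library's total was adjusted by its TMM factor. They are thus not counts over the raw library total. Since CPM do not account for gene length, they are compared between samples and not between genes. After a ± sign, log2 fold changes carry their standard error and mean CPM the SD over the 4 libraries of a group. Exposed day 5 libraries spread most, with a median SD over genes of 0.299 on the log2 CPM scale, against 0.148 in uninfected day 5 libraries, and with 0.144 in exposed day 1 libraries against 0.113 in uninfected day 1 libraries. Genes of the mitochondrial genome, rRNA included, held 0.969% ± 0.201 of counts in exposed day 5 libraries, against 1.71% ± 0.126 in uninfected day 5 libraries, and 2.28% ± 0.377 in exposed day 1 libraries, against 2.11% ± 0.112 in uninfected day 1 libraries (SD, n = 4 each). The file names of exposed day 5 replicates 2 and 3 carry another library code series than the others. All 16 macrophage markers examined were detected, and the lowest, Siglecf, lay between 4.29 and 9.87 CPM. Their sum was 17420 to 24190 CPM in exposed day 5 libraries, against 10860 to 11340 CPM in uninfected day 5 libraries. Means of exposed against uninfected day 5 libraries were 7899 against 2256 CPM for Lyz2 and 786 against 96.6 CPM for Csf1r. Lower in exposed day 5 libraries were Mrc1 (102 against 375 CPM), Fabp4 (411 against 859 CPM) and Pparg (185 against 383 CPM). Of 7 marker lists of other cell types, the B and plasma cell list stayed under 1 CPM for 8 of 8 genes, and Col1a2, Lum, Cd3g and Retnlg were at 0 in every library. The summed T cell list was 11.9 to 17.85 CPM in exposed day 5 libraries, against 2.425 to 3.12 CPM in uninfected day 5 libraries, carried by Lck and Cd247 while Cd3d, Cd3e, Cd3g and Trac stayed under 1 CPM. The neutrophil list summed to 7.98 to 11.1 CPM in exposed day 5 libraries, against 3.77 to 4.78 CPM in uninfected day 5 libraries. In it, means in exposed day 5 libraries against those in uninfected day 5 libraries were 4.38 against 0.0570 CPM for Camp and 3.405 against 0.648 CPM for Ngp, while Mpo went the other way (0.643 against 3.25 CPM). The epithelial list, mostly Cdh1, summed to 15.1 to 26.7 CPM in exposed day 5 libraries, against 76.2 to 81.2 CPM in uninfected day 5 libraries. At day 1 it summed to 35.6 to 43.4 CPM in exposed libraries, against 64.0 to 69.0 CPM in uninfected libraries. Epcam, Krt8, Krt18, Sftpc and Sftpb stayed under 1 CPM. The endothelial list summed to 141 to 195 CPM in exposed day 5 libraries, against 267 to 365.5 CPM in uninfected day 5 libraries, through Vwf, with a mean of 163 CPM in exposed libraries, against 315 CPM in uninfected libraries. Means of its members, exposed against uninfected at day 5, went the other way for Cdh5 (2.88 against 0.355 CPM), Pecam1 (3.53 against 2.20 CPM) and Kdr (0.854 against 0.607 CPM). The dendritic cell list, mostly Zbtb46, summed to 6.84 to 8.30 CPM in exposed day 5 libraries, against 3.75 to 4.15 CPM in uninfected day 5 libraries. The fibroblast list, all Pdgfra and Pdgfrb but for genes under 1 CPM, summed to 15.3 to 18.3 CPM in exposed day 5 libraries, against 20.4 to 22.5 CPM in uninfected ones. In it Pdgfra was lower (mean 11.2 against 20.8 CPM) and Pdgfrb higher (4.48 against 0.0796 CPM) in exposed day 5 libraries. The part of these differences in the results below was not tested.

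More of these genes were called for exposure at day 5 than at day 1. At day 5, 15 of the 35 genes rose (42.9%) and 5 fell (14.3%), while 28.6% of all 17190 genes tested rose and 28.4% fell. A change of at least 2-fold was seen in 7 genes that rose and 1 that fell, against 13.6% and 9.33% of all genes. At day 1, 4 of 35 rose (11.4%) and 2 fell (5.71%), while 13.4% of all genes rose and 10.5% fell. This order depended on the fit. With only the libraries of a day fitted, 12 members rose and 3 fell at day 5, against 25.7% and 24.5% of all genes. In that kind of fit 12 members rose and 7 fell at day 1, among them 2 and 2 chaperone targets, against 23% and 21.3% of all genes. Without regard to the test, every exposed library stood above every uninfected one in 10 members at day 5 and 8 at day 1, against 22.3% and 19.6% of all genes. Every exposed library stood below every uninfected one in 2 members at day 5 and 11 at day 1, against 24.2% and 19.7% of all genes. Calls are edgeR quasi-likelihood tests with Benjamini-Hochberg adjustment over all genes and an adjusted p under 0.05. The day 1 count of genes that rose was 2 without exposed day 1 replicate 1 or 3 or without uninfected day 1 replicate 1, 3 or 4. It was 8 without exposed day 5 replicate 3. The day 5 count that fell was 9 without exposed day 5 replicate 2 and 8 when uninfected day 5 replicate 4 was left out. Because each value is an average over a culture, a large change in few cells and a small change in all of them cannot be told apart.

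The target arms differed in their counts, a difference that was not itself tested. At day 5, 28.6% of all genes rose and 28.4% fell, and 13.6% rose by at least 2-fold. Of the 11 ATF4 targets, 6 rose (54.5%) and 1 fell (9.09%) at day 5, and the median log2 fold change was 0.79. Among those that rose, 5 did so by at least 2-fold. Of the 17 chaperone targets, 5 rose (29.4%, near the share of all genes) and 2 fell (11.8%) at day 5, 0 by 2-fold or more, and the median was 0.145. Leaving out exposed day 5 replicate 3 made these 9 and 1, and leaving out exposed day 5 replicate 2 made them 2 and 4. Without any 1 of 10 libraries (exposed day 1 replicates 2 and 3, exposed day 5 replicate 4, the 4 uninfected day 1 libraries and uninfected day 5 replicates 1, 2 and 4) 3 rose, and without uninfected day 5 replicate 1, 2 or 3 only 1 fell. The count of ATF4 targets that fell was 3 without exposed day 5 replicate 2 or uninfected day 5 replicate 4, and 2 without exposed day 5 replicate 4. At day 1, when 13.4% of all genes rose and 10.5% fell, 4 ATF4 targets rose (36.4%) and 0 fell, with a median of 0.30. Among the 17 chaperone targets 0 were called in either direction at day 1, with a median of -0.08. Each of these counts of 0 by edgeR was also 0 at an unadjusted p under 0.05 and by DESeq2. Both checks take the dispersion of a gene from all 16 libraries, exposed day 5 included. With only the day 1 libraries fitted, genes of both arms were called in each direction, so these counts depend on the fit. Every exposed day 1 library stood below every uninfected one in 6 of 17 chaperone targets, against 19.7% of all genes. In 1 chaperone target every exposed library stood above, against 19.6%. The median over all genes tested was 0.02 at day 5 and 0.03 at day 1. Among the 7 sensors and factors, 4 rose (57.1%) and 2 fell (28.6%) at day 5. At day 1, 0 of them rose (1 at an unadjusted p under 0.05 and 0 by DESeq2) and 2 fell (28.6%).

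**Figure D1:**
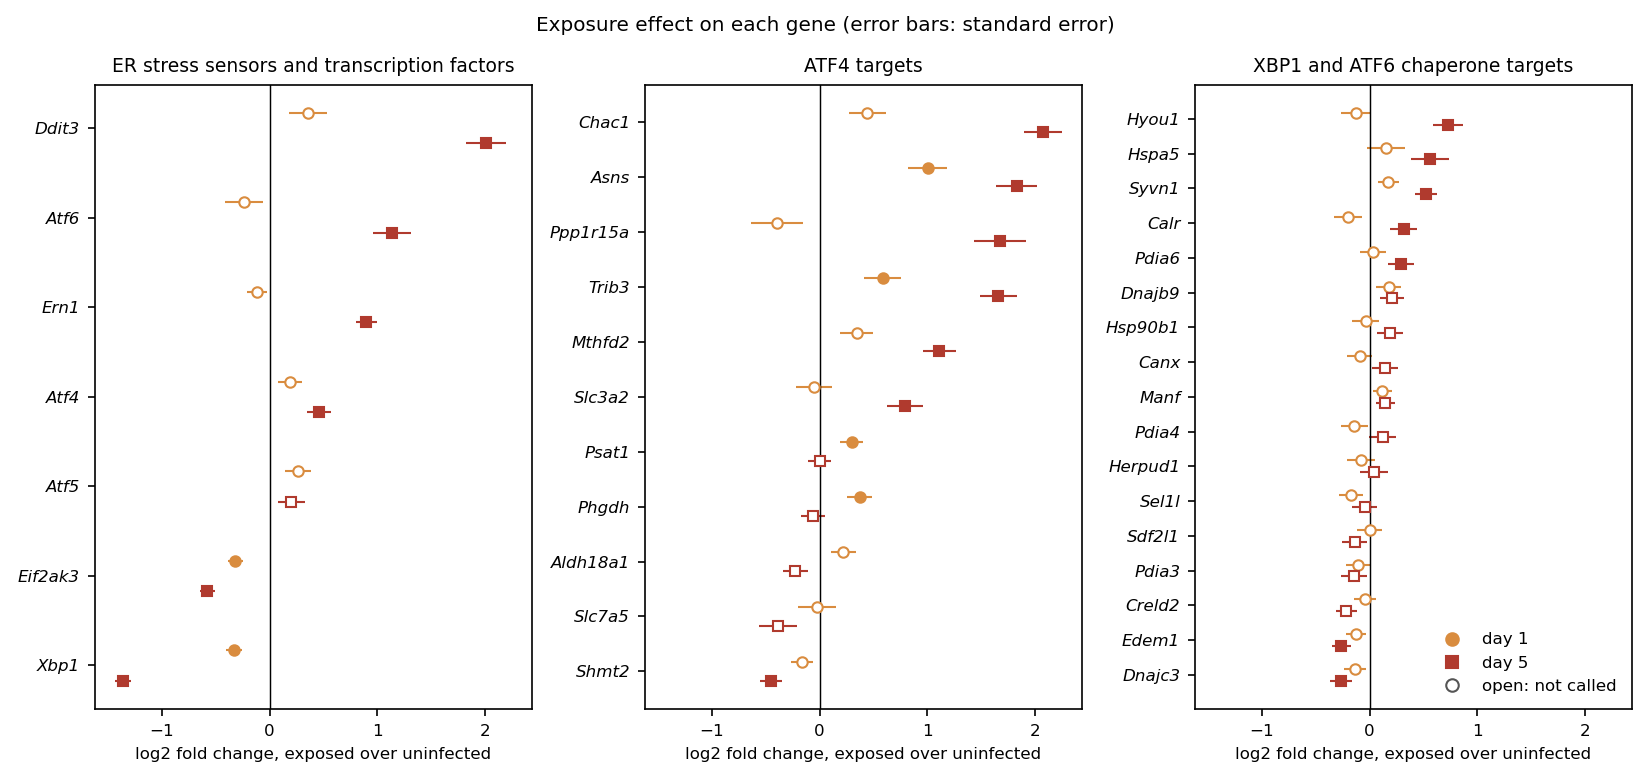
Log2 fold change of each of the 35 genes, exposed over uninfected cells, at day 1 (circles) and day 5 (squares), with standard errors and open symbols where the adjusted p was 0.05 or more. The largest day 5 values among the ATF4 targets are 2.08 (Chac1) and 1.83 (Asns), and among the chaperone targets 0.73 (Hyou1) and 0.56 (Hspa5).

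The sensors went different ways. Ern1 was at 89.5, 117, 84.1 and 112 CPM in exposed day 5 libraries, against 54.9, 58.1, 50.6 and 52.0 CPM in uninfected day 5 libraries. Every exposed library stood above every uninfected one, and the log2 fold change was 0.90 ± 0.095, adjusted p = 1.57e-07. At day 1 it was at 64.2, 63.0, 64.0 and 72.5 CPM in exposed cells, against 70.4, 68.2, 72.6 and 74.8 CPM in uninfected cells. These groups overlapped, since exposed replicate 4 stood apart from the other exposed libraries, and the difference was not called (log2 fold change -0.12 ± 0.095, adjusted p = 0.398). Atf6 had 73.6, 129.5, 51.9 and 93.7 CPM in exposed day 5 libraries, against 38.8, 39.8, 41.3 and 38.6 CPM in uninfected day 5 libraries. Its exposed libraries spanned a wide range, from replicate 3 up to replicate 2, but all lay above the tight uninfected group (log2 fold change 1.14 ± 0.18, adjusted p = 3.46e-05). Day 1 values of Atf6 were 42.0, 41.1, 44.3 and 38.1 CPM in exposed libraries, against 50.3, 50.1, 47.6 and 47.6 CPM in uninfected libraries. Here the exposed group was the lower one without overlap, and the test did not call it (log2 fold change -0.24 ± 0.18, adjusted p = 0.349).

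Eif2ak3, the gene of PERK, fell at both days. At day 1 it was at 46.5, 47.5, 44.9 and 45.8 CPM in exposed libraries, against 57.1, 56.0, 55.5 and 61.4 CPM in uninfected libraries, and at day 5 at 35.7, 35.1, 29.2 and 31.9 CPM in exposed libraries, against 47.6, 52.9, 48.3 and 48.0 CPM in uninfected libraries. At neither day did the groups overlap. The log2 fold change was -0.32 ± 0.072, adjusted p = 0.00357 at day 1 and -0.58 ± 0.072, adjusted p = 1.31e-06 at day 5. The step between the days was not called (-0.26 ± 0.10, adjusted p = 0.0525 for the difference of the log2 fold changes).

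Xbp1 mRNA, the substrate of IRE1, fell further than any other member. At day 5 exposed libraries held 138, 147, 124.5 and 148 CPM, against 346, 351, 386 and 356.5 CPM in uninfected libraries. The highest exposed library was under the lowest uninfected one by a wide gap, and the log2 fold change was -1.365 ± 0.075, adjusted p = 2.01e-11. Day 1 values were 238.5, 240.4, 237 and 228 CPM in exposed libraries, against 291, 311, 292 and 291 CPM in uninfected libraries, again without overlap (log2 fold change -0.33 ± 0.074, adjusted p = 0.00332). The spliced and unspliced forms are summed in these counts.

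Atf4 mRNA was at 668.5, 898, 554.5 and 752 CPM in exposed day 5 libraries, against 544, 521, 533 and 496 CPM in uninfected day 5 libraries. The exposed libraries lay above the uninfected ones, replicate 3 only narrowly, and the gene rose (log2 fold change 0.46 ± 0.11, adjusted p = 0.00168). Day 1 levels of Atf4 were 590.5, 544, 567 and 499.8 CPM in exposed libraries, against 492, 494, 474 and 467 CPM in uninfected libraries, a difference without overlap that was not called (log2 fold change 0.19 ± 0.11, adjusted p = 0.225). Atf5, a factor under translational control like ATF4, was at 138, 144, 93.0 and 161 CPM in exposed day 5 libraries, against 124, 118, 118 and 106 CPM in uninfected day 5 libraries. Its exposed replicate 3 lay under every uninfected library, and Atf5 was not called at day 5 (log2 fold change 0.20 ± 0.12, adjusted p = 0.172). At day 1 Atf5 had 136, 131, 135 and 113 CPM in exposed libraries, against 109.5, 94.6, 119 and 106 CPM in uninfected libraries, with overlap and no call (log2 fold change 0.265 ± 0.12, adjusted p = 0.131).

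Ddit3, the gene of CHOP, had the largest rise among the factors. It was at 43.7, 76.3, 36.6 and 77.3 CPM in exposed day 5 libraries, against 14.8, 14.0, 14.5 and 14.7 CPM in uninfected day 5 libraries. Exposed replicates 2 and 4 stood about equally high, replicates 1 and 3 lower, and all above the uninfected group (log2 fold change 2.01 ± 0.185, adjusted p = 6.73e-08). At day 1 exposed libraries had 27.3, 22.7, 22.6 and 26.4 CPM, against 20.0, 18.4, 19.2 and 19.7 CPM in uninfected libraries. These groups did not overlap either, but the gene was not called (log2 fold change 0.36 ± 0.18, adjusted p = 0.16). Its 2 records share sequence on 1 strand in GENCODE M21, so reads that could belong to both may be missing from the level.

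**Figure D2:**
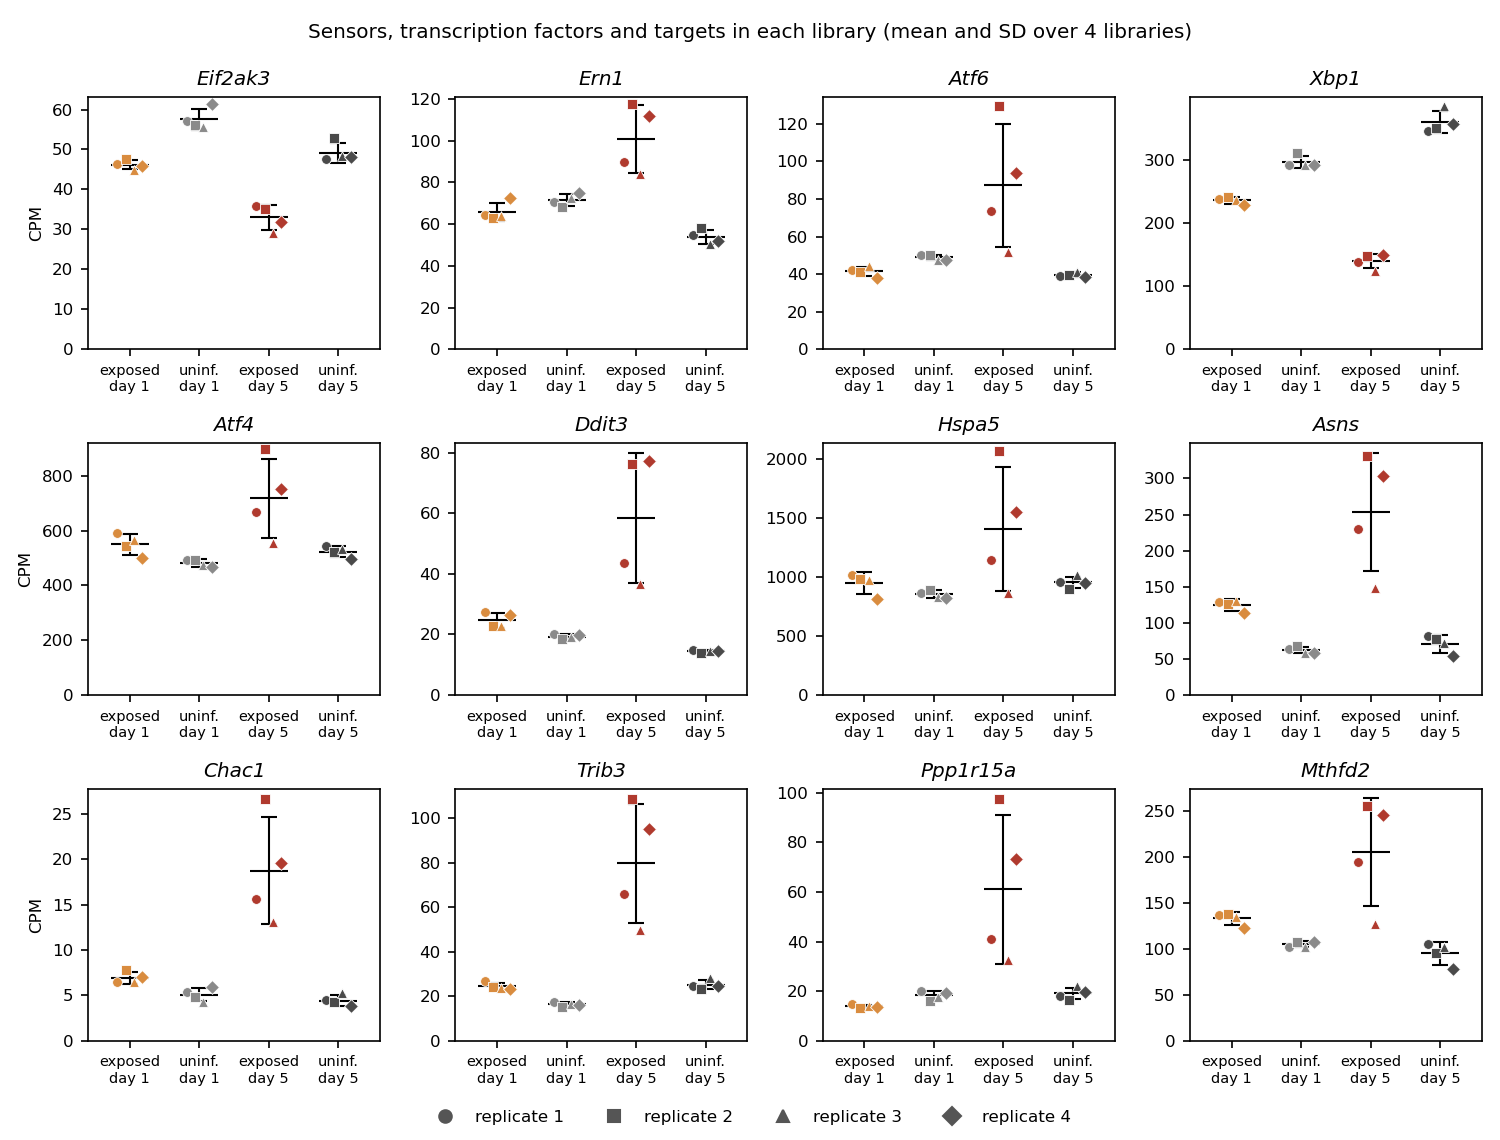
CPM of 12 members in each library, with the group mean and SD as horizontal bars and whiskers, exposed groups left of their uninfected (uninf.) groups and replicate numbers as symbols. In Xbp1 the 4 exposed day 5 libraries sit between 124.5 and 148 CPM, under the 346 to 386 CPM of uninfected day 5 libraries, and in Asns, Chac1, Trib3 and Ppp1r15a every exposed day 5 library sits above every uninfected one.

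Promoters were read for the sequence elements through which the arms are known to act. The ER stress response element (ERSE; CCAAT, 9 bases, CCACG) binds ATF6 and XBP1, ERSE-II (ATTGG, 1 base, CCACG) is a shorter form, and the C/EBP-ATF response element (CARE; TGATG, 1 base, AA) binds ATF4. RefSeq promoters of build GRCm38.p6, limited to the 250 bases before the annotated start, were matched by symbol for 31 of the 35 members, and both strands were searched. ERSE was found in 8 of 15 chaperone targets (Calr, Canx, Creld2, Dnajc3, Hsp90b1, Hspa5, Pdia6 and Syvn1) and in 0 of 10 ATF4 targets, against 0.113% of 32851 promoters of that length. CARE was found in 2 of 10 ATF4 targets (Asns and Chac1) and in 1 of 15 chaperone targets (Herpud1), against 3.45% of all. ERSE-II was in Herpud1 among members, against 0.0304% of all promoters, and the XBP1 core TGACGTGG, which on the other strand contains the CCACG of ERSE, was in 0 members and in 0.563% of all. These are matches of letters and not measured binding sites. Shown are the promoters of Hspa5, the main ER chaperone, and of Asns and Chac1, ATF4 targets with large changes. Chosen after its values were seen, the promoter of Herpud1, which holds CARE and ERSE-II, is shown too. They are written 5′ to 3′ along the gene, with ERSE (Hspa5), CARE (Asns, and on the opposite strand in Chac1 and Herpud1) and ERSE-II (the second run of capitals in Herpud1) in capitals, at chr2:34771840-34772089 (+), chr6:7693210-7693459 (-), chr2:119350992-119351241 (+) and chr8:94386179-94386428 (+) in that build.
Hspa5: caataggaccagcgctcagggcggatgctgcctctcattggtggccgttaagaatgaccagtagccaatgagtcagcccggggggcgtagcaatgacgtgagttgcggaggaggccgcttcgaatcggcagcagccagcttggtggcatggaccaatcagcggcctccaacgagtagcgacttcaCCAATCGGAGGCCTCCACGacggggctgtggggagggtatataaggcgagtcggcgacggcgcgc
Asns: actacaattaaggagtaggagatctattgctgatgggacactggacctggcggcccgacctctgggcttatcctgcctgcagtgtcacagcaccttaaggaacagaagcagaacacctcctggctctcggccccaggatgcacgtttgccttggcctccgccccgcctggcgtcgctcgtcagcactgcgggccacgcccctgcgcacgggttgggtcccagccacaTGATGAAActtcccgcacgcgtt
Chac1: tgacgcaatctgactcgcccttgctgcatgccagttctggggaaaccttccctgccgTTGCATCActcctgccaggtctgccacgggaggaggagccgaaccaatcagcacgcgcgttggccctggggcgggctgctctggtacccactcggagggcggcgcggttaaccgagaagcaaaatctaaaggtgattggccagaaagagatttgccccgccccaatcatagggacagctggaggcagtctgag
Herpud1: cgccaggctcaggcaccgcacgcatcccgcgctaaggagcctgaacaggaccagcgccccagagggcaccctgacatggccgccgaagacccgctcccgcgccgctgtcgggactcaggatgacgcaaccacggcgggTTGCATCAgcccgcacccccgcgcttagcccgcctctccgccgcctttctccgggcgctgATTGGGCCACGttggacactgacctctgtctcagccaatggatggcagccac

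Among ATF4 targets, those of feedback and redox control rose at day 5. Chac1 encodes an enzyme that degrades glutathione, and it was at 15.7, 26.6, 13.1 and 19.6 CPM in exposed day 5 libraries, against 4.44, 4.22, 5.25 and 3.81 CPM in uninfected day 5 libraries. The groups were far apart, with a log2 fold change of 2.08 ± 0.18, adjusted p = 8.12e-09, the largest among the 35 genes. Chac1 at day 1 was at 6.43, 7.77, 6.45 and 7.07 CPM in exposed libraries, against 5.35, 4.85, 4.27 and 5.90 CPM in uninfected libraries, without overlap and without a call (log2 fold change 0.44 ± 0.17, adjusted p = 0.0697). Trib3, a pseudokinase that can hold back ATF4 activity, had 66.1, 109, 49.8 and 95.1 CPM in exposed day 5 libraries, against 24.8, 23.4, 28.2 and 24.6 CPM in uninfected day 5 libraries. Exposed replicate 2 was highest and replicate 3 lowest, all above the uninfected ones (log2 fold change 1.66 ± 0.17, adjusted p = 1.88e-07). Trib3 also rose at day 1, when it was at 26.7, 24.3, 23.6 and 23.4 CPM in exposed libraries, against 17.5, 15.2, 16.7 and 15.9 CPM in uninfected libraries (log2 fold change 0.585 ± 0.17, adjusted p = 0.0172), a call that was lost without uninfected day 1 replicate 2 (adjusted p = 0.0509). Ppp1r15a encodes GADD34, the phosphatase subunit that reverses eIF2α phosphorylation. It was at 41.0, 97.3, 32.5 and 73.3 CPM in exposed day 5 libraries, against 18.1, 16.6, 22.1 and 19.7 CPM in uninfected day 5 libraries. Replicates 2 and 4 again stood above replicates 1 and 3, and the gene rose (log2 fold change 1.67 ± 0.24, adjusted p = 1.73e-05). At day 1 the order was opposite, with 14.7, 13.3, 13.8 and 13.8 CPM in exposed libraries, against 20.0, 16.2, 17.8 and 19.2 CPM in uninfected libraries, not overlapping but not called (log2 fold change -0.40 ± 0.24, adjusted p = 0.252).

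The amino acid and folate genes of the ATF4 arm were split. Asns, asparagine synthetase, had the largest called rise at day 1 and rose again at day 5. At day 1 it had 129, 126, 131 and 114 CPM in exposed libraries, against 64.1, 67.9, 58.8 and 58.0 CPM in uninfected libraries, and at day 5 229, 331, 149 and 303 CPM in exposed libraries, against 81.7, 77.5, 72.0 and 53.5 CPM in uninfected libraries. No library overlapped at either day, and the log2 fold change was 1.00 ± 0.18, adjusted p = 0.000922 at day 1 and 1.83 ± 0.19, adjusted p = 2.72e-07 at day 5. Mthfd2, a mitochondrial enzyme of folate metabolism, had 194, 255, 126.5 and 245 CPM in exposed day 5 libraries, against 105, 95.4, 102 and 77.5 CPM in uninfected day 5 libraries. The groups did not overlap (log2 fold change 1.11 ± 0.155, adjusted p = 6.75e-06). At day 1 it was at 137, 138, 135 and 122 CPM in exposed libraries, against 101, 108, 102 and 107 CPM in uninfected libraries, without overlap and not called (log2 fold change 0.35 ± 0.15, adjusted p = 0.111). Shmt2, which feeds the same mitochondrial pathway from serine, went the other way at day 5, to 48.5 ± 7.43 CPM in exposed against 66.3 ± 7.95 CPM in uninfected cells (log2 fold change -0.45 ± 0.10, adjusted p = 0.00075), with overlapping libraries.

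Of the serine synthesis enzymes, Phgdh and Psat1 were called at day 1 and not at day 5. Phgdh, the first enzyme of the pathway, was at 582 ± 62.3 CPM in exposed day 1 cells, against 449.5 ± 15.1 CPM in uninfected ones (log2 fold change 0.37 ± 0.115, adjusted p = 0.0237), and at 440.3 ± 85.3 CPM in exposed day 5 cells, against 459.7 ± 24.2 CPM in uninfected ones, where it was not called (log2 fold change -0.06 ± 0.115, adjusted p = 0.663). Psat1, the next enzyme, was at 64.5 ± 6.13 CPM in exposed day 1 cells, against 52.5 ± 4.15 CPM in uninfected ones (log2 fold change 0.30 ± 0.105, adjusted p = 0.0471), and at 60.5 ± 10.2 CPM in exposed day 5 cells, against 60.4 ± 4.86 CPM in uninfected ones (log2 fold change 0.00 ± 0.105, adjusted p = 0.992). The change between days was called for Phgdh (-0.435, adjusted p = 0.0428) and not for Psat1 (-0.30 ± 0.15, adjusted p = 0.132). That Phgdh call was lost without any 1 of 13 libraries, and with DESeq2, RLE size factors or no filter beyond 1 read. The difference between these genes was not itself tested. Both day 1 calls depended on single libraries. Phgdh lost it without exposed day 1 replicate 1 or 3 or uninfected day 1 replicate 1, 3 or 4 (adjusted p 0.0526 to 0.0771), and Psat1 without any 1 of 11 libraries (0.0522 to 0.15), the exceptions being exposed day 1 replicate 4, exposed day 5 replicates 2, 3 and 4 and uninfected day 1 replicate 2. Aldh18a1, an enzyme of proline synthesis, was called at neither day (log2 fold change 0.22 at day 1 and -0.225 at day 5).

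The amino acid transporter of this arm is a pair of chains that moved unequally. Slc3a2, the heavy chain shared by several amino acid exchangers, was at 411, 638, 294 and 619.9 CPM in exposed day 5 libraries, against 295, 288, 293 and 258 CPM in uninfected day 5 libraries. Exposed replicate 3 fell within the uninfected range and the other exposed libraries lay above it (log2 fold change 0.79 ± 0.165, adjusted p = 0.000454). At day 1 Slc3a2 was at 299 ± 11.8 CPM in exposed cells, against 310.2 ± 12.2 CPM in uninfected cells, and was not called. Its partner Slc7a5, the light chain for large neutral amino acids, was at 41.1, 47.9, 24.0 and 46.2 CPM in exposed day 5 libraries, against 61.4, 59.7, 49.3 and 38.3 CPM in uninfected day 5 libraries, with overlap and no call (log2 fold change -0.39 ± 0.18, adjusted p = 0.0688). The difference between these chains was not itself tested.

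Some chaperones of the ER lumen were called higher at day 5, all by less than 2-fold. In the whole chaperone arm 29.4% of genes rose, near the 28.6% of all genes tested. Hspa5 (BiP), which binds unfolded chains and holds the sensors inactive, was at 1146, 2068, 864 and 1545 CPM in exposed day 5 libraries, against 958, 897, 1014 and 944 CPM in uninfected day 5 libraries. Exposed replicate 3 lay under every uninfected library while replicate 2 stood far above them, and the gene was called (log2 fold change 0.56 ± 0.18, adjusted p = 0.0107). Without exposed replicate 2 the call was lost (log2 fold change 0.31, adjusted p = 0.0555). It was also lost with only the day 5 libraries fitted and with replicates 3 and 4 of each group alone. Hspa5 at day 1 was at 1019, 982, 973 and 814 CPM in exposed libraries, against 867, 890.5, 831 and 823 CPM in uninfected libraries, with overlap (log2 fold change 0.15 ± 0.175, adjusted p = 0.572). Hyou1, a co-chaperone that exchanges the nucleotide of BiP, was at 321, 432, 221 and 403 CPM in exposed day 5 libraries, against 223, 212, 211 and 185 CPM in uninfected day 5 libraries. Exposed replicate 3 fell among the uninfected values and the other exposed libraries lay above (log2 fold change 0.73 ± 0.14, adjusted p = 0.000216), the largest rise in the arm. Dnajc3 (p58IPK), a co-chaperone that also restrains PERK, went the other way, to 97.0, 110.4, 67.9 and 98.2 CPM in exposed day 5 libraries, against 109.5, 114, 118 and 108.5 CPM in uninfected ones (log2 fold change -0.27 ± 0.10, adjusted p = 0.0342). That call was lost without exposed day 5 replicate 3 (log2 fold change -0.14, adjusted p = 0.0746), as it was without uninfected day 5 replicate 2 or 3 (0.064 and 0.0812). It was also lost with DESeq2, RLE size factors, no filter beyond 1 read or only the day 5 libraries fitted. Replicates 1 and 2 alone, or 3 and 4 alone, did not give the call either. Hsp90b1 (GRP94), Dnajb9 (ERdj4) and Sdf2l1 were not called at day 5, with log2 fold changes of 0.19, 0.21 and -0.14.

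The lectin chaperones calreticulin and calnexin and the disulfide isomerases showed the same small scale. Calr was at 1271 ± 287 CPM in exposed day 5 cells, against 1022 ± 74.7 CPM in uninfected ones (log2 fold change 0.32 ± 0.13, adjusted p = 0.0404), and its partner Canx at 666 ± 141 CPM in exposed day 5 cells, against 602.5 ± 35.5 CPM in uninfected ones (log2 fold change 0.145 ± 0.12, adjusted p = 0.314). Pdia6 was at 429 ± 98.6 CPM in exposed day 5 cells, against 350.0 ± 14.1 CPM in uninfected ones (log2 fold change 0.29 ± 0.12, adjusted p = 0.0487), while Pdia3 and Pdia4 were not called (-0.14 and 0.12). The Calr call was lost without any 1 of 11 libraries (adjusted p 0.0509 to 0.196; exceptions were exposed day 1 replicates 1 and 4, exposed day 5 replicates 1 and 3 and uninfected day 5 replicate 3), and the Pdia6 call without any 1 of 14 (0.0508 to 0.236; exceptions were exposed day 1 replicate 4 and exposed day 5 replicate 3). With only the day 5 libraries fitted, the Calr and Pdia6 calls were lost as well. Creld2 and Manf, small ER proteins raised by ER stress, were not called (log2 fold change -0.215 ± 0.10, adjusted p = 0.0772 and 0.145 ± 0.090, adjusted p = 0.179).

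In the ERAD machinery, Syvn1 encodes the ubiquitin ligase HRD1. Its exposed libraries all stood above the uninfected ones at day 5, which held for 1 of 17 chaperone targets, against 22.3% of all genes. The opposite order was seen in 0 of 17, against 24.2% of all genes. Syvn1 was at 101, 133, 90.1 and 129.5 CPM in exposed day 5 libraries, against 79.6, 86.8, 76.4 and 73.0 CPM in uninfected day 5 libraries, and rose (log2 fold change 0.52 ± 0.10, adjusted p = 0.000195). Its adaptor Sel1l was at 379 ± 80.3 CPM in exposed day 5 cells, against 392 ± 21.0 CPM in uninfected ones (log2 fold change -0.05 ± 0.115, adjusted p = 0.752), and Herpud1, a scaffold of the same complex that ATF4 can also raise, at 40.8 ± 9.42 CPM in exposed day 5 cells, against 39.7 ± 5.48 CPM in uninfected ones (log2 fold change 0.04 ± 0.13, adjusted p = 0.822). Edem1, a lectin that passes misfolded glycoproteins to ERAD, fell to 382 ± 51.7 CPM in exposed cells, against 458 ± 28.3 CPM in uninfected day 5 cells (log2 fold change -0.26 ± 0.091, adjusted p = 0.0195), and lost the call without uninfected day 5 replicate 1 (adjusted p = 0.053). The Edem1 call was also lost with no filter beyond 1 read, only the day 5 libraries fitted, or replicates 3 and 4 alone. At day 1 all 17 genes of the arm lay between -0.20 and 0.18 on the log2 fold change scale.

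Library by library, the arms kept their distance at day 5 but both followed the same replicates. The median over the 11 ATF4 targets of the log2 ratio to the uninfected mean was 0.54, 1.17, 0.05 and 1.13 in exposed day 5 libraries, against 0.13, 0.02, 0.03 and -0.22 in uninfected day 5 libraries. For the 17 chaperone targets it was 0.09, 0.42, -0.37 and 0.17 in exposed libraries, against 0.01, -0.02, 0.07 and -0.07 in uninfected libraries. Thus in each exposed day 5 library the ATF4 median stood above the chaperone median, and exposed replicate 3 was lowest in both. At day 1 the ATF4 medians were 0.34, 0.35, 0.33 and 0.08 in exposed libraries, against 0.03, 0.03, -0.03 and -0.025 in uninfected libraries. The chaperone medians at day 1 were -0.04, -0.03, -0.01 and -0.22 in exposed libraries, against 0.004, 0.06, -0.03 and -0.03 in uninfected libraries. These medians carry no test, since the genes were chosen with earlier results known.

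**Figure D3:**
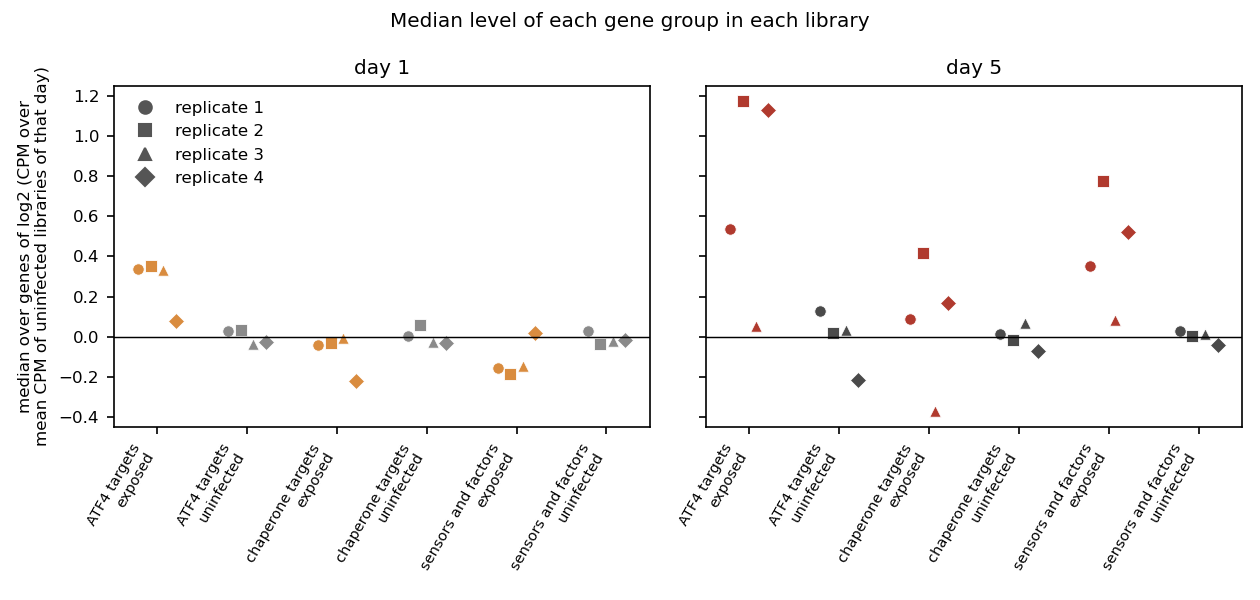
Median, over the genes of each group, of the log2 ratio of a library's CPM to the mean of the uninfected libraries of the same day, for each library. ATF4 targets of exposed day 5 libraries run from 0.05 to 1.17 and chaperone targets from -0.37 to 0.42, with replicate 3 lowest and replicate 2 highest in both.

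In CPM after TMM scaling, the replicates of the exposed day 5 group were ordered alike in nearly all members. The scaling itself differs between libraries, and the order was not read on raw library totals. The shares of all genes given here use the same scaling. Replicates 2 and 4 were the highest pair in 28 of 35 members (80%), against 25.6% of all genes tested, and replicate 3 was the lowest in 33 of 35 (94.3%), against 33.1%. The ratio of the highest to the lowest exposed day 5 library was 2.99 for Ppp1r15a, 2.49 for Atf6, 2.39 for Hspa5 and 2.23 for Asns, and 1.19 for Xbp1. Replicates 2 and 3, of the other code series, were at opposite ends of this order. With replicates 1 and 4 as the only exposed day 5 libraries, the ATF4 median was 0.86 and the chaperone median 0.13. With either replicate 2 or replicate 3 left out, 6 ATF4 targets rose. In the exposed day 1 group replicate 4, the library with the fewest counts, was the lowest in 27 of 35 members (77.1%), against 35.6% of all genes, and without it 4 members rose and 2 fell at day 1, as with it. What sets these orders was not tested.

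The exposure effect changed between the days for 14 members, 11 with a more positive effect at day 5 (31.4%) and 3 with a more negative one (8.57%), while 16.4% and 19.5% of all genes tested were called in these directions. The interaction was largest in Ppp1r15a (2.07 ± 0.34, adjusted p = 0.000211 on the log2 scale), Ddit3 (1.65 ± 0.255, adjusted p = 0.000103) and Chac1 (1.63 ± 0.245, adjusted p = 5.06e-05), followed by Atf6 (1.38 ± 0.25, adjusted p = 0.000454), Trib3 (1.08) and Ern1 (1.02). Slc3a2, Asns and Mthfd2 completed the 6 ATF4 targets with a more positive effect at day 5, and Hyou1 and Calr were the 2 chaperone targets. Xbp1 had the most negative one (-1.04 ± 0.10, adjusted p = 6.8e-07), and Phgdh (-0.435) and Aldh18a1 (-0.44) were the others. The calls of Phgdh (13 of 16 libraries), Aldh18a1 (12) and Calr (7) were lost when single libraries were left out, with adjusted p up to 0.093, 0.0951 and 0.0661. For Phgdh the exceptions were exposed day 1 replicate 4 and exposed day 5 replicates 1 and 2, and for Aldh18a1 these and uninfected day 5 replicate 4. Calr lost its call without exposed day 1 replicate 4, exposed day 5 replicate 2, uninfected day 1 replicate 1 or 2, or uninfected day 5 replicate 1, 2 or 4. With exposed day 5 replicate 3 left out, 18 members had a more positive effect at day 5, 8 of them chaperone targets (19.7% of all genes in that fit), and with exposed day 5 replicate 1 or 2 left out, 5 had a more negative one.

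Few of these genes were called between the days in uninfected cells in the fit of all 16 libraries. With only the uninfected libraries fitted, more members were called in each direction, beside 21.5% of all genes higher and 19.3% lower. Trib3 and Xbp1 were higher at day 5 than at day 1 (5.71% of members, against 10.8% of all genes), with log2 fold changes of 0.63 ± 0.17, adjusted p = 0.0138 and 0.28 ± 0.074, adjusted p = 0.0116, and Ern1 and Eif2ak3 were lower (5.71%, against 8.91%), with -0.41 ± 0.095, adjusted p = 0.00544 and -0.225 ± 0.072, adjusted p = 0.0334. Eif2ak3 lost that call without uninfected day 1 replicate 1, 2, 3 or 4 or uninfected day 5 replicate 1, 3 or 4 (adjusted p 0.0514 to 0.12). Leaving out exposed day 5 replicate 3, a library of neither group, raised the count of lower members to 4 and that of higher ATF4 targets to 2. In that fit the shares of all genes rose too, to 12.7% lower and 13.9% higher. Xbp1 thus moved upward in uninfected cells over the days in which it stood lower in exposed cells, and Ern1 downward in uninfected cells while it stood higher in exposed day 5 cells. Asns was not called between uninfected days (log2 fold change 0.19 ± 0.18, adjusted p = 0.497), nor was Ddit3 (log2 fold change -0.41 ± 0.18, adjusted p = 0.121). This comparison shares its uninfected libraries with the exposure effects and with the interaction, so it is no independent check of them.

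Other genes of the pathways, in 4 further lists, were counted in the same way, to be read against the 28.6% of all genes that rose and 28.4% that fell at day 5 and the 13.4% and 10.5% at day 1. Of 30 tested genes of amino acid metabolism and transport linked to ATF4, 19 rose (63.3%) and 5 fell (16.7%) at day 5, and 7 rose (23.3%) and 0 fell at day 1 (by edgeR, with 1 at an unadjusted p under 0.05 and 1 by DESeq2). The day 1 falls were 2 without exposed day 5 replicate 2, and 1 without exposed day 5 replicate 1 or 3 or uninfected day 5 replicate 4. In these fits 9.95% to 14.5% of all genes fell at day 1. Cystathionine gamma-lyase (Cth) was at 48.1 ± 19.4 CPM in exposed day 5 cells, against 3.44 ± 0.323 CPM in uninfected ones (log2 fold change 3.81 ± 0.23, adjusted p = 3.48e-10), and Slc7a11, the cystine transporter chain that pairs with the Slc3a2 chain, at 151 ± 67.3 CPM in exposed day 5 cells, against 15.4 ± 3.22 CPM in uninfected ones (log2 fold change 3.30 ± 0.26, adjusted p = 1.53e-08). The largest fall that the naming rule takes was that of cytosolic Shmt1, at 6.08 ± 2.72 CPM in exposed day 5 cells, against 26.6 ± 2.99 CPM in uninfected ones (log2 fold change -2.13 ± 0.21, adjusted p = 2.54e-07). Of 22 regulators of the integrated stress response, 10 rose (45.5%) and 4 fell (18.2%) at day 5, and 7 rose (31.8%) and 4 fell (18.2%) at day 1. The falls were 7 at day 5 without exposed day 5 replicate 2, and at day 1 they were 0 to 2 without any 1 of the 8 day 1 libraries, the lowest being without uninfected day 1 replicate 4. In the former fit 28.4% of all genes fell, and in the latter ones 6.93% to 8.14% did. Atf3, a stress factor downstream of ATF4, was at 307 ± 161 CPM in exposed day 5 cells, against 47.5 ± 3.22 CPM in uninfected ones (log2 fold change 2.69 ± 0.26, adjusted p = 1.73e-07). Bcl2l11 (log2 fold change -0.926 ± 0.081, adjusted p = 1.11e-08), Bbc3 (-0.738 ± 0.132, adjusted p = 9.18e-05) and Creb3 (-0.653 ± 0.106, adjusted p = 2.99e-05) fell at day 5, each without overlap. Eif2ak2 encodes the eIF2α kinase PKR, which is also an interferon-induced gene, and rose at day 1 (log2 fold change 1.53 ± 0.11, adjusted p = 5.96e-09) and at day 5 (log2 fold change 1.775 ± 0.11, adjusted p = 9.24e-11).

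Of 28 further ER folding and ERAD genes, 12 rose (42.9%) and 1 fell (3.57%) at day 5, with a median log2 fold change of 0.15, and 1 rose and 1 fell (3.57% each) at day 1. Ero1a, the oxidase that recharges protein disulfide isomerase, led them at 707 ± 415 CPM in exposed day 5 cells, against 317 ± 36.0 CPM in uninfected ones (log2 fold change 1.16 ± 0.26, adjusted p = 0.00119), but it was also higher in uninfected cells at day 5 than at day 1 (log2 fold change 1.46 ± 0.26, adjusted p = 0.00112). Of 28 genes of ER translocation and the secretory pathway, 13 rose (46.4%) and 1 fell (3.57%) at day 5, and 7 rose (25%) and 0 fell at day 1 (by edgeR, with 4 at an unadjusted p under 0.05 and 2 by DESeq2). With single libraries left out, 10 to 16 of each of these ER lists rose at day 5, against 26.2% to 28.9% of all genes. At day 1, 7 folding genes and 5 translocation genes fell without exposed day 5 replicate 3, against 14.5% of all genes in that fit. Without exposed day 5 replicate 2, 2 of each list fell, against 12.6% of all genes. Without any 1 of the 8 day 1 libraries 0 folding genes fell, against 6.93% to 8.14% of all genes. The folding gene that rose at day 1 was not called without exposed day 1 replicate 3 or 4 or uninfected day 1 replicate 1, 3 or 4. Without exposed day 5 replicate 2, 2 folding genes rose at day 1, against 15.5% of all genes. At day 5, 2 folding genes and 5 translocation genes fell without exposed day 5 replicate 2, 3 translocation genes without exposed day 5 replicate 4 or uninfected day 5 replicate 4, and 2 without exposed day 5 replicate 1 or uninfected day 5 replicate 2. In these fits 26.3% to 28.4% of all genes fell at day 5.

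**Figure D4:**
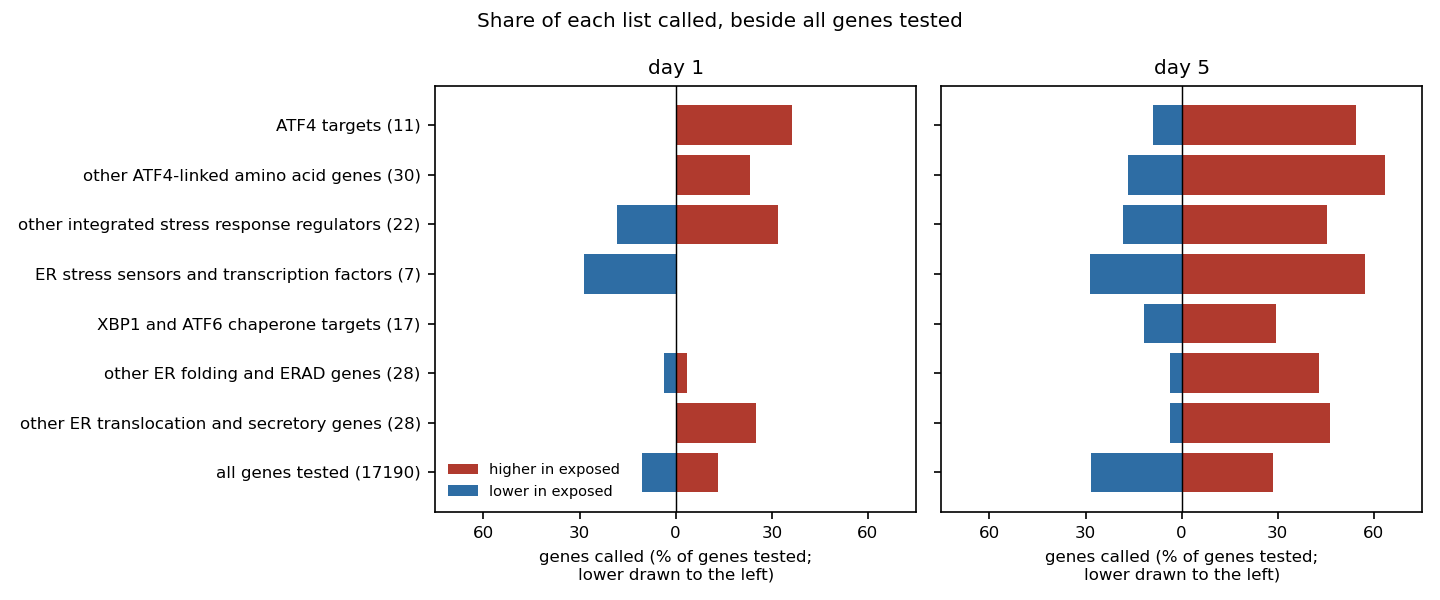
Share of each list called higher (right) or lower (left) in exposed than in uninfected cells at day 1 and day 5, with the number of genes tested in parentheses and all 17190 genes at the bottom. At day 5, 54.5% of ATF4 targets and 29.4% of chaperone targets rose, against 28.6% of all genes.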

How the data were processed

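RNA-seq counts were deposited for 16 libraries of MPI-2 cells, 4 per group, grouped by the labels. Alignment was with STAR on GRCm39, per the submitters' processing notes; program version, annotation and counting settings are not given in the sources used here. The deposited values are raw counts per gene, 1 file per library, and per the file names those assigned to the reverse strand, so reads of the other strand are counted apart. RNA was polyadenylated and extracted with Maxwell kits, per the labels' protocols.

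Ensembl identifiers without their version were given symbols from GENCODE M21 (52083 of 55359; the others held 0.449% of counts). That release and the RefSeq promoters rest on an older build, so coordinates are given for the promoters alone. Genes were filtered with filterByExpr by group (17190 kept), scaled by TMM and fitted with edgeR 4.0.16 (R 4.3.3; quasi-likelihood, robust, 1 mean per group, all 16 libraries). The comparisons were exposed against uninfected cells at each day, the change of that effect (interaction), and uninfected day 5 against day 1. Tests were two-sided and adjusted by Benjamini-Hochberg over all genes tested. The p-values rest on the spread between replicates labelled biological, of 1 line, with 1 dispersion per gene shared by all 4 groups. Day 1 and uninfected comparisons thus also carry the wider spread of exposed day 5 libraries. Standard errors are the log2 fold change over the square root of F. The tests were run on simulated data first. Depth limits none of the members, whose lowest count in a library was 236.

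The members, arms, lists, comparisons and naming rule were chosen with earlier results of these data known. All members may be named, with values per library for the sensors, the factors, Hspa5, Asns, Chac1, Trib3 and members called with at least a 2-fold change, and by choice for Slc3a2, Slc7a5, Hyou1 and Syvn1. From each other list up to 3 called genes per direction with at least 5 CPM qualified, of which a few are given. The alternatives tried were RLE size factors, DESeq2 1.42.0, filters of 1 read or of 1 CPM in 4 libraries, only the libraries compared, the replicate block, each library left out, exposed day 5 replicates 1 and 4 alone, replicates 1 and 2 or 3 and 4 of each group alone, and other arm membership. Counts and genes of the other lists under these were added after seeing the data. Replicate numbers did not pair the libraries.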

Additional observations from a re-analysis of the deposited data

Results flagged for a closer look

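For 14 members the exposure effect differed between day 5 and day 1 by the interaction test, given here as the day 5 log2 fold change minus that of day 1. It was higher at day 5 for Ppp1r15a (2.07), Ddit3 (1.65), Chac1 (1.63), Atf6 (1.38), Trib3 (1.08), Ern1 (1.02), Hyou1 (0.855), Slc3a2 (0.845), Asns (0.83), Mthfd2 (0.77) and Calr (0.52), and lower for Xbp1 (-1.04), Aldh18a1 (-0.44) and Phgdh (-0.435). Of these, the calls of Xbp1, Ern1, Ddit3, Chac1 and Ppp1r15a held under every alternative run.

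In 10 of the 140 combinations of a member and a group, 1 library stood apart from the other libraries of its group, by the gap to its nearest neighbour as a share of the group's range (above Dixon's 95% critical value for 4 libraries). Chance flags about 1 in 20 such groups. Exposed day 1 replicate 4 accounted for 6 of them, as the highest library for Ern1 (0.875) and the lowest for Pdia3 (0.906), Hsp90b1 (0.876), Manf (0.865), Calr (0.846) and Pdia4 (0.833). It had the fewest counts of all libraries and a mitochondrial share of 2.69%, and the part of these in its levels was not tested. Exposed day 5 replicate 3 was lowest for Creld2 (0.865). Among uninfected libraries, day 1 replicate 2 was highest for Xbp1 (0.952), day 5 replicate 2 highest for Eif2ak3 (0.872) and day 5 replicate 4 lowest for Canx (0.864).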

How the results depend on the processing

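No direction was reversed among called results under the alternatives, and 12 of 20 day 5 calls (Ern1, Eif2ak3, Atf6, Xbp1, Ddit3, Asns, Chac1, Trib3, Ppp1r15a, Mthfd2, Shmt2 and Syvn1), 0 of 6 day 1 calls, 5 of 14 interaction calls and 0 of 4 calls between uninfected days held under all of them. The arm medians moved by less than the spread between libraries, although the day 5 chaperone median was -0.06 with replicates 3 and 4 alone. The cause of the changes below was not tested, apart from fewer samples where libraries were left out and fewer or more genes where a filter changed. Depth limits none of the members, whose lowest count in a library was 236, but the spread of exposed day 5 libraries enters the dispersion of every comparison.

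Counts of called members, ATF4 targets and chaperone targets that moved by over 1.5 times are given as higher and lower, with the shares of all genes in that fit in the same order. With no filter beyond 1 read, members were 2 higher at day 1 (ATF4 targets 2), 3 lower at day 5 (chaperone targets 0), 1 lower in the interaction (ATF4 targets 0), and 0 higher and 1 lower between uninfected days (ATF4 targets 0 higher). All genes were at 5.74% higher at day 1, 14.3% lower at day 5, 8.44% lower in the interaction, and 4.5% and 3.89%. With only the libraries of the groups compared, members were 12 and 7 at day 1 (ATF4 targets 7 and 2, chaperone targets 2 and 2), 3 lower at day 5 (chaperone targets 2 higher and 0 lower), and 6 and 7 between uninfected days (ATF4 targets 3 and 1, chaperone targets 2 and 2). All genes were at 23% and 21.3% at day 1, 25.7% and 24.5% at day 5, and 21.5% and 19.3%. With exposed day 5 replicates 1 and 4 alone, members were 9 and 5 at day 1 (ATF4 and chaperone targets each 1 lower) and 6 lower between uninfected days (ATF4 targets 2 and 1, chaperone targets 1 lower), and 5 chaperone targets were higher in the interaction. All genes were at 17.9% and 16.1% at day 1, 17.6% higher in the interaction, and 15.6% and 14% between uninfected days. With replicates 1 and 2 of each group alone, members were 2 and 0 at day 1 (ATF4 targets 1 higher) and 0 lower between uninfected days (ATF4 targets 2 higher), ATF4 targets were 2 and chaperone targets 1 lower at day 5, and 1 chaperone target was higher in the interaction. All genes were at 4.66% and 2.33% at day 1, 21.8% lower at day 5, 8.49% higher in the interaction, and 2.42% and 1.07% between uninfected days. With replicates 3 and 4 of each group alone, members were 0 and 0 at day 1 (ATF4 targets 0), 9 higher at day 5 (chaperone targets 1 and 1), 4 and 1 in the interaction (ATF4 targets 2 and 0, chaperone targets 0) and 0 and 0 between uninfected days (ATF4 targets 0). All genes were at 3.33% and 0.914%, 19.5% and 19.5%, 4.75% and 6.34%, and 2.26% and 1.14% in these 4 comparisons. DESeq2 and RLE size factors each gave 1 chaperone target lower at day 5, 1 member lower in the interaction (ATF4 targets 0) and 1 ATF4 target lower between uninfected days. All genes lower in these 3 comparisons were at 15.2%, 9.95% and 6.16% with DESeq2 and at 27.6%, 17.4% and 9.71% with RLE size factors.

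Replicate numbers did not pair the libraries: deviations of same-numbered libraries correlated at -0.151 to 0.148 over 24 pairs, and 3 of 16 libraries correlated best with their own number. With the replicate block, ATF4 targets were 2 lower and chaperone targets 3 higher at day 5, and ATF4 targets 1 lower between uninfected days. All genes were at 28.1% lower and 28% higher at day 5 and 8.34% lower between uninfected days.

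With each library left out in turn, members ran from 2 to 8 higher at day 1, 4 to 9 lower at day 5, 10 to 18 higher and 1 to 5 lower in the interaction, and 1 to 4 lower between uninfected days. ATF4 targets ran from 2 to 6 higher at day 1, 1 to 3 lower at day 5, 0 to 3 lower in the interaction, and 1 to 2 higher and 0 to 1 lower between uninfected days. Chaperone targets ran from 2 to 9 higher and 1 to 4 lower at day 5 and from 1 to 8 higher in the interaction. All genes ran from 9.64% to 16.1% higher at day 1, and from 26.2% to 28.9% higher and 26% to 28.9% lower at day 5. In the interaction they ran from 13.9% to 19.7% higher and 16.8% to 22.4% lower, and between uninfected days from 6.95% to 13.9% higher and 4.99% to 12.7% lower.

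Under the settings that left out no single library, higher and lower counts at day 5 ran from 15 to 21 and 4 to 5 for the amino acid list, 8 to 11 and 3 to 4 for the integrated stress response regulators, 6 to 14 and 0 to 1 for the folding list and 4 to 15 and 0 to 3 for the translocation list. At day 1 they ran from 0 to 11 and 0 to 3, 2 to 10 and 0 to 5, 0 to 3 and 0 to 9, and 3 to 8 and 0 to 8 in the same order of lists. In that order 30, 22, 28 and 28 genes were tested in the fit of all 16 libraries. Under these settings all genes ran from 16.6% to 33% higher and 14.3% to 32.9% lower at day 5. The day 1 shares of all genes ran from 3.33% to 23% higher and 0.914% to 21.3% lower.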
